A study of Rattus norvegicus with 421 samples.

Results

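Rats that received only vehicle still differ from one another in their liver transcripts, and these differences set the error against which any treatment effect is measured. To describe them, all arrays of vehicle livers whose titles begin with CMC_, CO_ or Sal_ were taken, and the mean of an array's own group was subtracted from every probe set. The animals were male Wistar Hanover rats of the outbred stock Crl:WI[Gl/BRL/Han]IGS BR, 8 to 10 weeks old, kept in single cages with free access to chow, and dosed by gastric gavage. Corn oil (CO, 30 arrays) was the vehicle in 3 study blocks, saline (Sal, 12 arrays) in 1 block and carboxymethylcellulose (CMC, 86 arrays) in 6 blocks. A group is 1 block at 1 time, and it is named by vehicle, block and time, as in CMC_1H_7d. The corn oil and CMC groups were taken after dosing for 1, 3, 7 or 14 days, with only days 3 and 7 in the corn oil block 1C, and the saline groups at 6, 12, 24 and 48 hours. The remaining 293 arrays of the series, in 98 groups, came from animals of the same strain given a test compound. In the treated groups 3 of 5 animals were picked for the arrays by changes in the liver, whereas the methods do not say how the vehicle animals were picked, and all samples are whole liver with every cell type it holds.

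Of the 38 vehicle groups, 32 held 3 arrays, 2 held 4 and 4 held 6. In the 6 larger groups, 14 pairs of consecutively numbered arrays were almost alike. Over 433 genes of high spread, the arrays of such a pair differed by a root mean square of 0.15 to 0.31 log2 units, against at least 0.34 between any other arrays of a vehicle group (154 pairs, median 0.46) and at least 0.34 in treated groups (292 pairs). Over 30 further genes that had not been used in the search, the paired arrays differed by 0.13 to 0.39 and the other vehicle pairs by at least 0.66. The labels do not say that such arrays share an animal. They were averaged and counted as 1 animal each, which left 114 animals, 3 in every group (30 corn oil, 12 saline and 72 CMC animals), and 76 residual degrees of freedom. Pairs were taken from the closest on until 3 arrays or averages were left, so 3 per group was set by the search. The labels list the remaining arrays as separate samples. Albumin (Alb), transthyretin (Ttr), fetuin-A (Ahsg) and apolipoprotein A-I (Apoa1) lay at or above 14.9, 14.1, 14.2 and 13.2 on the log2 scale in every vehicle animal, so that each library held the defining transcripts of hepatocytes, and the array medians lay between 7.4 and 7.48. The arrays CMC_1B_7d_3 and CMC_1B_14d_3 stood apart, with transcripts of pancreas and muscle that are described last, and without them the count of high-spread genes given next was 524. CMC_1N_1d_1 stood apart on the low side, with 42 probe sets at least 1 below both mates, against a median of 7 over the animals.

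The liver is mostly hepatocytes, whose transcript levels follow feeding, the hormone pulses of the individual animal and the time of day, with macrophages (Kupffer cells), endothelial cells, stellate cells, bile ducts and blood beside them. Animals of an outbred stock also differ from one another in their genes. In male rats growth hormone is released in pulses, and each pulse switches STAT5 target genes on for a short time.

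For most genes, animals of a group were about as far apart as the near-identical arrays. The median standard deviation (SD) between group mates was 0.11 log2 units over 10411 genes, a factor of 1.08, and the median SD between the arrays of a near-identical pair was also 0.11. Gene by gene, the SD between animals was at the median 1.04 times that between paired arrays, which had been found by their closeness over high-spread genes. As the SD depends on the level, each gene's SD was divided by the SD fitted at its mean level, and a ratio of at least 2 is called high spread here. By this rule 566 of 10411 genes had high spread (5.44%), 44 had a ratio of at least 5, and 62 had an SD of at least 0.5. The share of high spread was 3.71% at mean levels of 6 to 7 and 9.62% at 10 and over. A pooled SD on 76 degrees of freedom has a relative standard error of 8.11% where deviations are normal. At the edge of the rule stood Stbd1 with a ratio of 2.00 inside and Mgat2 with 1.998 outside.

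**Figure D1:**
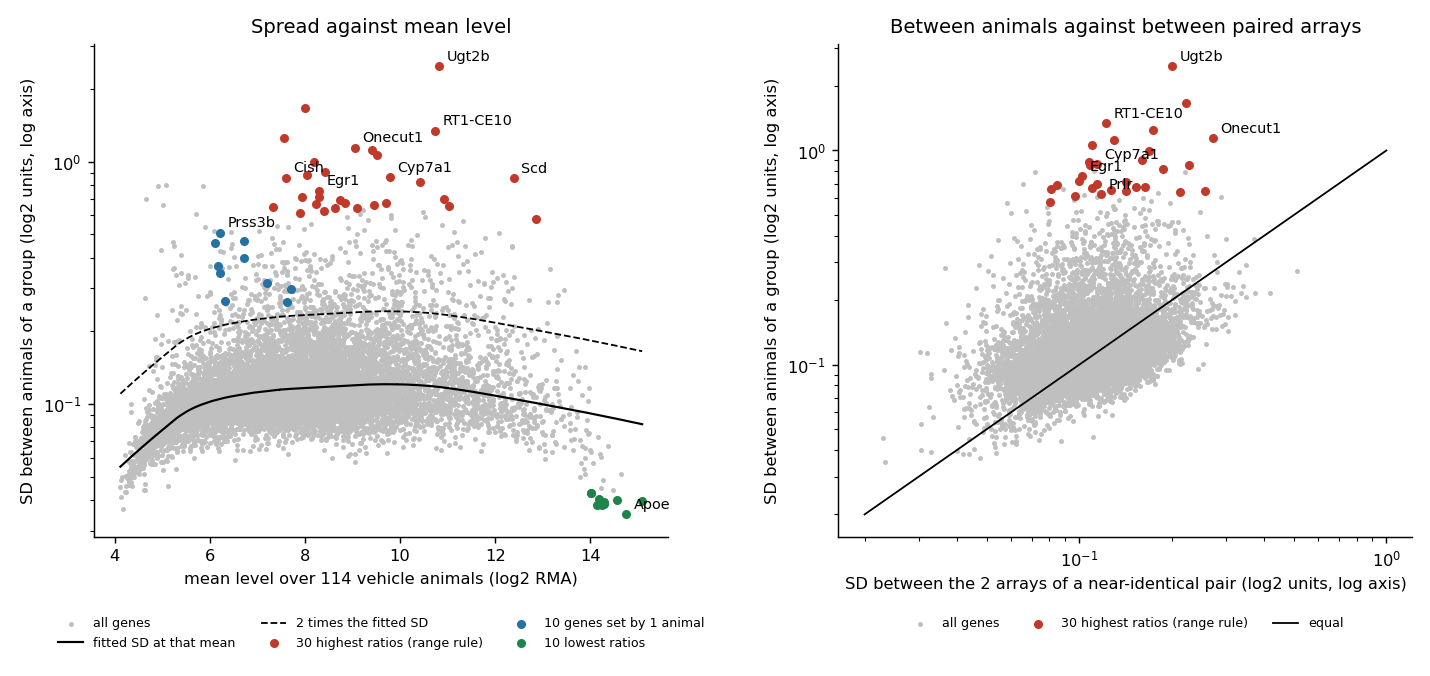
SD between animals of a group for each of 10411 genes, against the mean level over 114 vehicle animals (left, log2 RMA, with the fitted SD as a solid line and 2 times that SD as a dashed line) and against the SD between the arrays of a near-identical pair (right); SD axes are logarithmic. Ugt2b stands highest with an SD of 2.47, and Apoe lowest of the marked genes with 0.0350.

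The same genes varied in animals that had not been used to choose them. Of 571 genes with high spread in the CMC animals, 425 (74.4%) also had high spread in the corn oil animals and 336 (58.8%) in the saline animals, against 1.55% and 2.61% of the 9840 other genes. In the treated groups 477 of the 571 (83.5%) and 1.62% of the others had high spread. All arrays went through 1 normalization together, so these values share that step. A list of 30 genes took the highest ratios among those whose group mates differed at least 2-fold in 10 or more groups. It was chosen over all vehicle animals, so only the treated arrays had no part in the choice. All 30 had high spread in the treated animals. They also had it in the corn oil, the saline and the CMC animals, which largely follows from the choice. No single animal made up more than 16.7% of the squared deviation of any of them, a share that the rule on groups itself limits. Their ratios were at least 5.27, with Adh4 the last one inside (5.267) and Sgk1 the first one outside (5.265).

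Ugt2b, a UDP-glucuronosyltransferase that conjugates steroids, had the highest ratio of all 10411 genes (21.0), and its levels fell into 2 separate ranges. In 20 animals it lay between 4.93 and 6.05 (median 5.36), in the other 94 between 11.51 and 12.50 (median 11.97), and in none between. In CMC_1H_7d, for example, the 3 animals had 12.20, 4.93 and 11.94, so that 1 of 3 was low and the other two were alike. Animals of both ranges occurred in 16 groups, and the other 22 groups held high animals only. Paired arrays differed by at most 0.60, against a gap of 5.46 between the ranges. By block, 0 to 33.3% of the animals were low, with none in CMC blocks 1B and 1N. Among the 293 treated arrays 65 were low, 197 high and 31 lay between. RefSeq gives Ugt2b2 as a synonym of this gene, and a form of this family that acts on androsterone is known to be missing in part of the Wistar rats; whether the probes report that form was not tested. The family has near-identical copies, and the probes may be shared with some of them.

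Genes of the rat major histocompatibility complex, which is named RT1 and presents peptides to T cells, were 5 of the 30 highest. RT1-T24-4 lay between 5.21 and 10.51, with a median of 8.10 (SD 1.67), and in CMC_1O_7d the 3 animals had 10.50, 5.64 and 8.06. Group mates differed at least 2-fold in 34 of 38 groups for this gene. RT1-CE10, a class I gene, lay in 2 ranges as Ugt2b did: 36 animals stood at or below 9.69 and 78 at or above 11.02, and 28 groups held animals of both. In CMC_1H_14d its levels were 11.97, 8.29 and 8.71. By block 16.7 to 50.0% of the animals were in the low range, and of the treated arrays 106 were low, 180 high and 7 between. RT1-N2 had an SD of 1.25 and RT1-Bb, a class II beta chain, one of 0.88. Paired arrays differed by at most 0.27 for RT1-CE10 and 0.72 for RT1-T24-4.

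**Figure D2:**
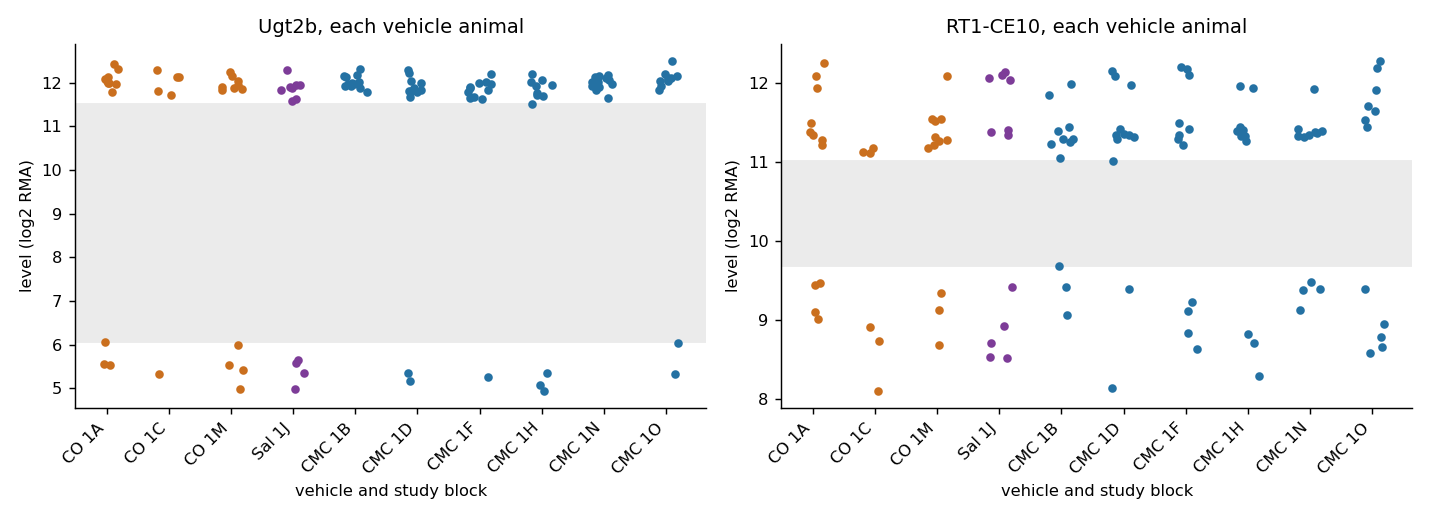
Levels (log2 RMA) of Ugt2b (left) and RT1-CE10 (right) in each of 114 vehicle animals, by vehicle and block, 1 point per animal; the grey band is the gap that no vehicle animal enters. For Ugt2b 20 animals lie below the gap of 5.46 log2 units and 94 above it, and for RT1-CE10 36 lie below a gap of 1.33 and 78 above it.

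The RT1 genes did not move as 1 set. RT1-CE10 varied with RT1-CE16 (r = 0.71 in corn oil and saline animals, 0.86 in CMC animals and 0.70 in treated arrays), whereas RT1-T24-4 ran against RT1-CE16 (r = -0.83, -0.84 and -0.73 in the same order) and with RT1-A (0.75, 0.81 and 0.80). In CMC_1H_14d, RT1-CE16 stood at 9.04, 6.26 and 6.51, high in the animal that was also high in RT1-CE10. These are correlations of deviations from the group mean, over 42, 72 and 293 arrays that share 1 normalization, given as a description. Of the 17 RT1 genes measured in the span between the first and the last of them in RefSeq order, 12 had high spread (70.6%), as had 8 of the 75 other genes of that span (10.7%) and 5.27% of the genes elsewhere. The 8 were Ubd, Ier3, Slc44a4, Psmb9, Psmb8, Tcf19, Ppp1r10 and Tubb5. Ubd, which codes for a ubiquitin-like protein, lay between 7.61 and 11.32, with 7.71, 10.01 and 10.89 in CMC_1H_14d. Allelic forms of RT1 genes can differ under a probe, and a difference in sequence and a difference in transcript level cannot be told apart with these arrays. The probe sets of RT1-CE10, RT1-CE16 and RT1-T24-4 have names ending in _x_at, and their probes may be shared with related genes. Whether shared probes add to these correlations was not tested.

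Onecut1, Socs2 and Cish, which are known to respond to growth hormone, were also among the genes of high spread. Of 17 male-biased and growth hormone genes on the list used here 5 had high spread (29.4%, against 5.44% of all genes). They were Cish, Socs2, Obp3, Hsd17b2 and Igfals. Over the 17 genes the median ratio was 1.40, against 1.00 over all genes, and the mean pairwise r was 0.08. Igf1 had a ratio of 1.44 and the growth hormone receptor Ghr one of 1.62. Onecut1 (HNF6), a hepatocyte transcription factor, lay between 6.14 and 11.04, with a median of 9.37 and an SD of 1.14, and group mates differed at least 2-fold in 29 groups. In Sal_1J_6h the 3 animals had 6.92, 9.46 and 10.98, and in CO_1C_7d they had 6.42, 10.11 and 9.10. Socs2, a feedback inhibitor of the growth hormone receptor, varied with Onecut1 at r = 0.88 in corn oil and saline animals, 0.89 in CMC animals and 0.88 in treated arrays. Slc25a30, a mitochondrial carrier, did so at 0.87, 0.82 and 0.84. Together with Tle1, Rsrp1, Rrs1, B3gnt2, Xbp1, Tmx4, Poglut3 and Rbm15 they formed a set of 11 genes, found by clustering high-spread genes in the CMC animals only, at a mean pairwise r of 0.66 there. In the corn oil and saline animals, which the clustering had not used, the mean r was 0.68, and over all high-spread genes it was 0.02. Rin2 ran against Onecut1 itself (r = -0.83, -0.72 and -0.70), as did Klf15, a transcription factor of the fasted state (-0.50, -0.63 and -0.59).

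Cish, another feedback inhibitor of cytokine and growth hormone receptors, belonged to a second set of 14 genes, with Gadd45g, Gadd45a, Hhex, Dusp6, Myc, Rgs3, Lurap1l, Foxa2, Net1, Ier3, Ier2, Vgll4 and Ccnl1. Cish lay between 5.93 and 9.10, with a median of 7.91 (SD 0.86), and CO_1A_14d had 8.56, 9.06 and 6.35, with Hhex, a homeobox factor of the liver, at 11.51, 11.63 and 8.89 in the same animals. The third animal was thus low in both genes. Cish varied with Hhex at 0.88 in corn oil and saline animals, 0.88 in CMC animals and 0.81 in treated arrays, and with Foxa2 at 0.83, 0.90 and 0.84. Gadd45g, a growth arrest gene, had 6.98, 6.80 and 10.24 in CMC_1F_14d, and Myc had 6.66, 6.69 and 8.88 in these animals, so the third was high in both. Its correlation with Gadd45a was 0.87, 0.90 and 0.69. The ties of Onecut1 to the Gadd45g set differed by gene. Onecut1 varied with Vgll4 at 0.77, 0.67 and 0.72, and with Hhex at 0.62, 0.63 and 0.56. With Cish it varied at 0.60, 0.42 and 0.50, and with Gadd45g at 0.20, 0.18 and 0.13. Over the set of 14 genes the mean r was 0.69 in corn oil and saline animals, 0.72 in CMC animals and 0.57 in treated arrays.

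The promoter of Cish is shown because it carries several copies of the letters that STAT5 is known to bind. The motif TTCNNNGAA reads the same on both strands, and of the 12 genes of the set with a promoter in the RefSeq set of promoters, 3 held it in the 250 bases before the start (Cish, Ier2 and Vgll4), against 7.52% of 27457 promoters. None of 6 genes of the Onecut1 set did. The 4 copies in Cish start between 241 and 119 bases before the transcription start and stand in capitals. A match is a description of these letters and no proof of a site.
Cish, GRCr8 chr8:116850719-116850968, plus strand: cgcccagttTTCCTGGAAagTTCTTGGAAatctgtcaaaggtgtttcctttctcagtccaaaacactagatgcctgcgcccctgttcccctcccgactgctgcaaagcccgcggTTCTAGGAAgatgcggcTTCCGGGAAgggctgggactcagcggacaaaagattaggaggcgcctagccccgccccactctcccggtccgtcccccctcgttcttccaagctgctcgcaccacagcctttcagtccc

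Nr0b2 (SHP), a repressor in bile acid synthesis, ran against the Cish set. It lay between 6.99 and 10.27 (SD 0.72), with 6.99, 7.78 and 9.69 in CMC_1D_14d, and its r with Cish was -0.76 in corn oil and saline animals, -0.76 in CMC animals and -0.64 in treated arrays. With Kctd6, Ddit4 and C8h15orf39 it formed a set of 4 genes at a mean r of 0.58, 0.67 and 0.37. Cyp7a1, the rate-limiting enzyme of bile acid synthesis, lay between 7.33 and 11.82 (SD 0.86, at least 2-fold within 27 groups). In CMC_1N_7d its levels were 8.38, 11.31 and 10.32. Cyp7a1 ran against Onecut1 (r = -0.68, -0.36 and -0.46), but showed no clear tie to Cyp8b1, which acts later in the pathway (r = 0.04 over 114 animals, rho = 0.07, adjusted permutation p = 0.784).

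**Figure D3:**
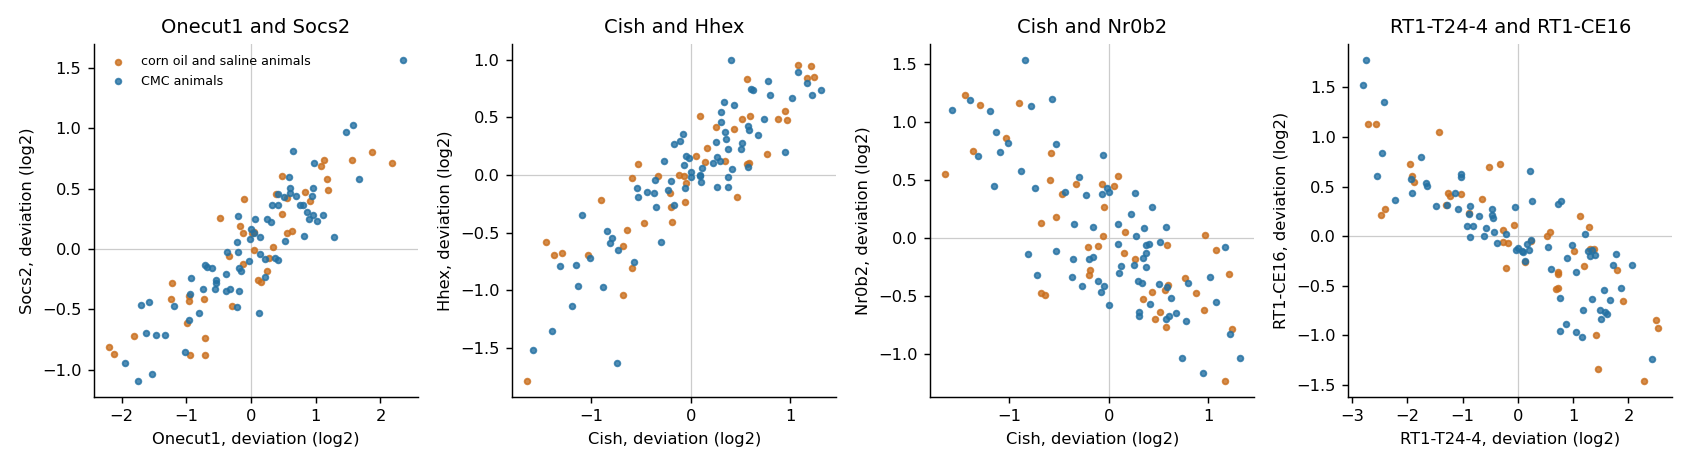
Deviation from the group mean (log2 units) of 2 genes in each of 114 vehicle animals, for Onecut1 and Socs2, Cish and Hhex, Cish and Nr0b2, and RT1-T24-4 and RT1-CE16; orange points are the 42 corn oil and saline animals and blue points the 72 CMC animals. The first and second pairs rise together (r = 0.88 and 0.88 in the corn oil and saline animals), and the other two run opposite (r = -0.76 and -0.83).

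Genes of the fed state varied widely. Scd, the desaturase that makes monounsaturated fatty acids, lay between 8.25 and 13.58 (SD 0.85). Its lowest animal was in CMC_1N_1d, where the levels were 8.25, 12.72 and 12.90, and this animal made up 16.7% of the squared deviation. The same animal was low in Fabp5, a fatty acid binding protein (7.81, 11.21 and 10.64), in Fasn, the fatty acid synthase (9.32, 10.80 and 11.34), in Acly (10.39, 11.32 and 12.06) and in Ifgga2l1, an interferon-induced GTPase (5.10, 9.06 and 9.07). It was low beyond these genes too: its 5 red cell genes stood on average 0.90 below its mates, the lowest value of the 114 animals, and it made up 14.1% of the squared deviation of the mean of the set led by Scd and 23.4% of that led by Nrep. Its part in these sets was not tested. Scd, Fabp5, Fasn, Acly, Pklr, Acaca, Tkfc, Enpep and Tkt formed a set of 9 genes with a mean r of 0.63 in corn oil and saline animals, 0.69 in CMC animals and 0.46 in treated arrays. Of the 22 fed-state genes of fatty acid synthesis and glycolysis on the list used here, 15 had high spread (68.2%, against 5.44% of all genes). The median ratio of the 22 was 2.26, against 1.00 over all genes. Examples outside the set were Angptl8, a hormone-like protein induced by feeding (SD 0.59), and Thrsp (0.44).

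Genes that rise on fasting had high spread at a like rate, 13 of 22 (59.1%, against 5.44% of all genes), with a median ratio of 2.14. The mean pairwise r over these 22 genes was 0.08. Igfbp1, an insulin-repressed binding protein for insulin-like growth factors, lay between 7.44 and 11.28 (SD 0.69), with 8.02, 8.54 and 10.57 in CMC_1D_1d. It varied with Pck1, the entry enzyme of gluconeogenesis (r = 0.48 over 114 animals, rho = 0.38, adjusted permutation p = 0.00054). Eci1 and Decr1, enzymes of the oxidation of unsaturated fatty acids, ran against Scd itself (r = -0.45 and -0.62 in corn oil and saline animals, -0.76 and -0.63 in CMC animals, -0.44 and -0.33 in treated arrays). Among lists of 10 or more genes other than that of the exocrine pancreas, glucocorticoid targets had the highest share of high spread. The lists were chosen with earlier results of these data known, so this order is only a description. Of 15 glucocorticoid targets 11 had high spread (73.3%, against 5.44% of all genes), with a median ratio of 3.29. Among them were Mt2A, a metallothionein (SD 0.65; 10.09, 11.81 and 12.42 in CMC_1D_3d), Sgk1, a kinase (0.63), Sds, serine dehydratase (0.52), and Tat, tyrosine aminotransferase (0.45). These 15 genes did not vary as 1 set, since the mean r between them was 0.03. Igfbp1 is on this list and on that of fasting genes. Mt2A followed Mt1 (r = 0.69, rho = 0.70, adjusted permutation p = 3.43e-05).

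Cholesterol synthesis genes had high spread in 10 of 17 cases (58.8%, against 5.44% of all genes), with a median ratio of 2.11 and a mean r of 0.43. Idi1, Sqle, Acat2, Msmo1, Cyp51 and Fdps, enzymes of the pathway or of the supply of its precursors, formed a set with a mean r of 0.70 in corn oil and saline animals, 0.75 in CMC animals and 0.83 in treated arrays. Sqle and Idi1 varied together at r = 0.86 (rho = 0.87, adjusted permutation p = 3.43e-05). Insig1, which holds this pathway back when sterols are plentiful, lay between 9.76 and 12.50 (SD 0.51). Between Sqle and Scd, Pearson's r was -0.20 over 114 animals (adjusted permutation p = 0.104) and rho was -0.30 (adjusted permutation p = 0.0137), so that only the rank test passed. The r was -0.52 in corn oil and saline animals, -0.03 in CMC animals and -0.30 in treated arrays. The letters TCACNCCAC, a form of the sterol response element, were in none of the 5 promoters of the Idi1 set that the RefSeq set held, against 0.976% of all promoters.

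Cell cycle genes were low but strongly tied to one another. Cdkn3, Stmn1, Cdk1, Ccnb2, Pclaf, Spc24, Ccnb1, Spc25, Ube2c, Cdca3, Top2a, Kif20a, Tcf19, Cdc20 and Tubb5 formed a set of 15 genes, most of them acting in mitosis, with a mean r of 0.77 in corn oil and saline animals, 0.86 in CMC animals and 0.83 in treated arrays. Cdk1, the kinase that starts mitosis, lay between 6.13 and 8.47 and had 6.65, 8.32 and 6.94 in CMC_1N_1d. In CMC_1H_3d the third animal stood out, with Cdkn3 at 5.99, 5.94 and 8.50 and Cdk1 at 6.91, 6.86 and 8.47, and it made up 14.0% of the squared deviation of the set's mean. Cdk1 and Ccnb2 varied together at r = 0.92 (rho = 0.90, adjusted permutation p = 3.43e-05). Of 29 cell cycle genes 13 had high spread (44.8%, against 5.44% of all genes). Mcm2, Mcm3, Mcm5 and Mcm7, subunits of the replicative helicase, had ratios of 0.98, 0.88, 1.03 and 1.22.

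Promoters of 3 mitotic genes are shown because all 14 genes of the set with a promoter in the RefSeq table held the letters CCAAT, on either strand, in the 250 bases before the start, against 34.3% of 27457 promoters. The motif TTTGAA, searched in the same way, was in 6 of the 14 and in 16% of all promoters. The windows are the 120 bases before the start, in GRCr8, with CCAAT or its reverse ATTGG in capitals.
Cdk1, chr20:19265173-19265292, plus strand: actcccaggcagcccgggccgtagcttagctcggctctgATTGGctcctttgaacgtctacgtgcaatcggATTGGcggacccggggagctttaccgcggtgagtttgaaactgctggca
Ccnb2, chr8:79981659-79981778, minus strand: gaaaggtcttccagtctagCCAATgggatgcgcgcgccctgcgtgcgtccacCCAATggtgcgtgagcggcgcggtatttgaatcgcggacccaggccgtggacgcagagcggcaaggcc
Ccnb1, chr2:33655226-33655345, minus strand: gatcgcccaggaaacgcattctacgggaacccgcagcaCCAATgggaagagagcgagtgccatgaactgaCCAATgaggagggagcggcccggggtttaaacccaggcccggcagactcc
In Cdk1 the motif starts 81 and 49 bases before the transcription start in this window, in Ccnb2 101 and 68, and in Ccnb1 82 and 50. These 3 genes were picked for display, and the number and spacing of copies differed over the other genes of the set.

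Interferon-induced genes formed a set of 6, Oas1a, Usp18, Ly6e, Lgals9, RT1-S3 and Irf7, with a mean r of 0.76 in corn oil and saline animals, 0.71 in CMC animals and 0.62 in treated arrays. Oas1a, which makes the activator of an antiviral ribonuclease, lay between 7.18 and 9.11 (SD 0.42). Mx1 and Irf7 varied together at r = 0.75 (rho = 0.73, adjusted permutation p = 3.43e-05). Of 23 genes of the interferon response 11 had high spread (47.8%, against 5.44% of all genes), among them Bst2 (SD 0.31) and Cxcl9 (0.36). The 4 genes of the set with a promoter in the RefSeq table all held GAAA, any 2 bases and GAAA, or the reverse complement of this, the letters of an interferon response element, against 3.29% of 27457 promoters. The windows below are the 120 bases before the start, with the motif in capitals. The copies in Oas1a overlap.
Oas1a, chr12:41330346-41330465, plus strand: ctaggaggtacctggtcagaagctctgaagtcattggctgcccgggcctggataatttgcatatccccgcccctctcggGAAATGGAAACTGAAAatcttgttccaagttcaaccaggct
Lgals9, chr10:64428071-64428190, minus strand: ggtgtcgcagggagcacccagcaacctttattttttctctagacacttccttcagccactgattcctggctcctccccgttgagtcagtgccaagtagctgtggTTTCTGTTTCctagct
RT1-S3, chr20:2675408-2675527, plus strand: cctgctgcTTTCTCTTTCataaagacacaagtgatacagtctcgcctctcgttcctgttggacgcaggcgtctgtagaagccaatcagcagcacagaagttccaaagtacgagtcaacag
Irf7, chr1:205800024-205800143, minus strand: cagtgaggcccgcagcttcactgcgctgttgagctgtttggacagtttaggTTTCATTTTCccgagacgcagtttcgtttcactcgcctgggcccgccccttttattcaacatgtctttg

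Sets of genes of non-hepatocyte cells followed. In whole liver, fewer cells of a type and less RNA per cell cannot be told apart. Ccl6, Clec4f, C1qa, C1qb, C1qc, Fcna, Cd68, Ctss and 4 other genes, mostly of macrophages, varied together at a mean r of 0.79 in corn oil and saline animals, 0.76 in CMC animals and 0.70 in treated arrays. Clec4f, a receptor of Kupffer cells, lay between 9.04 and 10.78 (SD 0.34). The class II genes RT1-Da, RT1-Ba, RT1-Db1 and Cd74, the invariant chain, did so at 0.79, 0.83 and 0.85, and RT1-Da followed Ccl6 at 0.71, 0.60 and 0.60. RT1-Bb, though also a class II gene, clustered with RT1-CE10. Red cell genes (Alas2, Hbb, Hba-a3 and Bpgm), with Rsad2, Cdc25b, Alox15 and Ube2o, formed a set at 0.77, 0.76 and 0.66, and Hbb and Alas2 had r = 0.94 (rho = 0.93, adjusted permutation p = 3.43e-05). Of 12 genes of T and NK cells, 7 of neutrophils and 8 of mast cells none had high spread, at median list levels of 6.15 to 6.51, near the floor of the arrays.

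**Figure D4:**
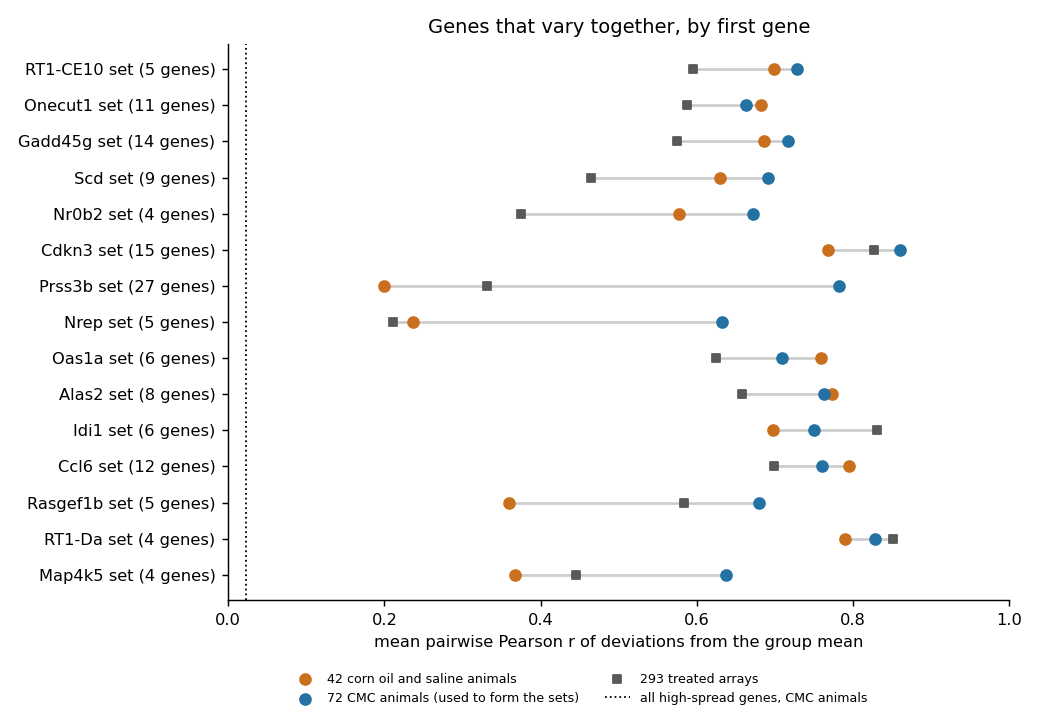
Mean pairwise Pearson r of deviations from the group mean for each of 15 sets of genes, named by their first gene: 42 corn oil and saline animals (orange), 72 CMC animals, which were used to form the sets (blue), and 293 treated arrays (squares); the dotted line is the value over all high-spread genes. The Cdkn3 set stands at 0.77, 0.86 and 0.83. The 4 sets that fall most from CMC animals to corn oil and saline animals are Prss3b (0.20 in corn oil and saline, 0.78 in CMC), Nrep (0.24 and 0.63), Rasgef1b (0.36 and 0.68) and Map4k5 (0.37 and 0.64).

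Some of the other genes among the 30 highest had a closest gene in CMC animals that was not close in the rest. Cdh17, liver-intestine cadherin, lay between 7.38 and 11.72 (SD 1.12) and had 8.02, 11.05 and 11.25 in CO_1M_14d. Its closest gene in CMC animals, Pld1 (r = 0.54), had 0.06 in corn oil and saline animals. Egfr, the receptor of epidermal growth factor, lay between 8.81 and 12.31 (9.24, 9.88 and 12.31 in CO_1A_14d), and its closest gene, Zup1, had r = 0.22 in corn oil and saline animals and -0.63 in CMC animals. For Hamp, the iron hormone hepcidin (13.21, 12.99 and 10.31 in Sal_1J_12h), the closest gene was Hspa1a, at -0.23 in corn oil and saline animals and -0.51 in CMC animals, and Hamp followed Id1, a target of the same BMP signal, at r = 0.29 (rho = 0.26, adjusted permutation p = 0.0242). Egr1, an immediate early transcription factor, had 11.03, 7.32 and 9.73 in CMC_1F_3d and varied with the chemokine Cxcl1 at 0.55, 0.70 and 0.42. Fos had no high spread (ratio 0.91) and no tie to Egr1 that passed (r = 0.06, adjusted permutation p = 0.679). A2m, an acute phase protein of the rat, had 11.58, 8.59 and 7.93 in CO_1M_14d and no tie to Lcn2 that passed (r = 0.02, adjusted permutation p = 0.844). Of 18 acute phase genes 5 had high spread (27.8%, against 5.44% of all genes).

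Enzymes of xenobiotic and steroid metabolism were also present. Aldh1a1, a retinal dehydrogenase, lay between 7.41 and 11.10 (SD 0.66; 8.32, 9.86 and 10.74 in CMC_1B_3d) and varied with the glutathione transferase Gsta3 at 0.39, 0.57 and 0.59. Adh4, an alcohol dehydrogenase, followed Adh5 at 0.64, 0.64 and 0.58. Of 12 female-biased genes 7 had high spread in these male rats (58.3%, against 5.44% of all genes). The highest ratios were those of Akr1b7 (6.23, on a mean level of 5.71), Cyp2c12 (5.45) and Prlr, the prolactin receptor (5.32). Prlr ran against Nox4 (r = -0.77, -0.73 and -0.57) and with Cyp2c7 (0.64, 0.66 and 0.36). Cyp2c11, the main male-specific P450, had no high spread (ratio 0.85) but followed Obp3 (r = 0.37, rho = 0.39, adjusted permutation p = 0.000933). Sult2a6, a sulfotransferase, and the genes Sv2b and Ythdf2 completed the 30, with SDs of 0.64, 0.65 and 0.67.

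Clock genes gave a mixed picture: 5 of 15 had high spread (33.3%, against 5.44% of all genes), led by Bhlhe40 (SD 0.52), Per2 (0.39) and Usp2 (0.37). Dbp, an output gene of the clock, had 5 animals at or above 8.34 and 109 at or below 7.34, and in only 1 group did both occur. Dbp followed Per2 (r = 0.33, rho = 0.41, adjusted permutation p = 0.003) and ran against Pck1 (r = -0.20, rho = -0.29, adjusted permutation p = 0.0242), while its r with Bmal1 was -0.24 (rho = 0.04, adjusted permutation p = 0.457). Its pairs with Nr1d1 (r = 0.25, rho = -0.19, adjusted permutation p = 0.679) and Cyp7a1 (r = 0.08, rho = 0.02, adjusted permutation p = 0.699) did not pass either. With Nr1d1 the r was 0.58 in corn oil and saline animals and -0.27 in CMC animals. In all, 34 pairs of genes had been listed, of which 24 were measured, and 13 passed a permutation test of r within groups after Benjamini-Hochberg adjustment over the 24 (12 positive, 1 negative); 1e-05 is the smallest raw p that 100000 permutations can give, and it corresponds to the adjusted 3.43e-05. Leaving out the 2 animals farthest from the median of the first gene, with the group means kept as they were, gave 0.93 for Hbb and Alas2 and 0.25 for Hamp and Id1. It gave 0.92 for Ckm and Myl1, whose group mates keep their shared deviations in this check, and this pair is described with the arrays that carry it.

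Beside the 5.44% of all genes with high spread, the lists of basic cell machinery gave small counts. No gene of 72 of the respiratory chain had high spread (median ratio 0.875), as had 1 of 43 cytosolic ribosomal proteins (2.33%, Rps4y2). Of 33 proteasome subunits 2 had it (6.06%, near the share of all genes), Psmb9 and Psmb8, interferon-induced subunits whose genes lie in the RT1 span. Of 10 hepatocyte genes none had high spread (median ratio 0.606). The lowest ratios at a mean of 8 or more were those of Apoe (SD 0.0350, ratio 0.411), Apoh, Vtn, Ttr, Ahsg, Itih3, C3, Ambp, Plg and Alb (SD 0.0397, ratio 0.482), all plasma proteins at levels of 14.0 to 15.1, near the upper end of the array's scale, where a probe set can show little difference. For Apoe the SD was 1.5 times that between paired arrays, and for Ambp 0.684 times.

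Of the arrays, CMC_1B_7d_3 carried transcripts of the exocrine pancreas. Its 21 acinar genes stood on average 2.74 above those of its group mates, 17 of them by at least 1, and the next animal stood at 0.18. Amy2a3, an amylase, had 11.13 in this animal and 4.56 and 4.43 in its mates, and Cela2a, an elastase, had 11.60 against 6.81 and 6.67. Prss1 (trypsin) had 10.02 against 6.23 and 6.23, and Pnlip (lipase) had 10.73 against 6.57 and 6.58. None of 7 islet genes was 1 or more higher there. The animal also stood 1.46 higher over 31 skeletal muscle genes (14 of them by at least 1) and 1.29 higher over 7 bile duct genes. In all, 100 probe sets were at least 1 above both mates, against a median of 7 over the 114 animals.

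CMC_1B_14d_3 carried muscle transcripts, while its pancreas acinar genes stood at 0.03 relative to its mates and 0 of 21 were 1 or more higher. Its 31 muscle genes stood 1.08 above its mates, 11 of them by at least 1, and the third-highest animal stood at 0.11. Acta1, skeletal actin, had 10.53 in this animal and 4.78 and 4.86 in its mates, and Ckm, muscle creatine kinase, had 9.59 against 6.44 and 6.45. Krt4, a keratin of stratified epithelium, reached 10.71 in this animal, with a median of 7.69 over all vehicle animals. Krt4 stood 2.92 above the mates, and Lgals7, Krt5 and Krtdap stood 2.04, 1.46 and 1.10 above them. These 2 arrays set the numbers of several genes: 12 genes with a mean of 6 or more took at least 50% of their squared deviation from 1 animal, and the 10 highest ratios among them were those of Prss3b, Ctrb1, Cela2a, Pnlip, Prss1, Rnase1l2, Cpb1, Reg1a and Cel in CMC_1B_7d_3 and Krt4 in CMC_1B_14d_3. The set of 27 genes led by Prss3b, of pancreas, muscle and connective tissue, had a mean r of 0.20 in corn oil and saline animals and 0.78 in CMC animals, but 0.11 in CMC animals without both arrays. Ckm and Myl1 had r = 0.97 (rho = 0.34, adjusted permutation p = 0.0198), and r = 0.17 without them. How the transcripts of other tissues entered the samples was not tested.

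**Figure D5:**
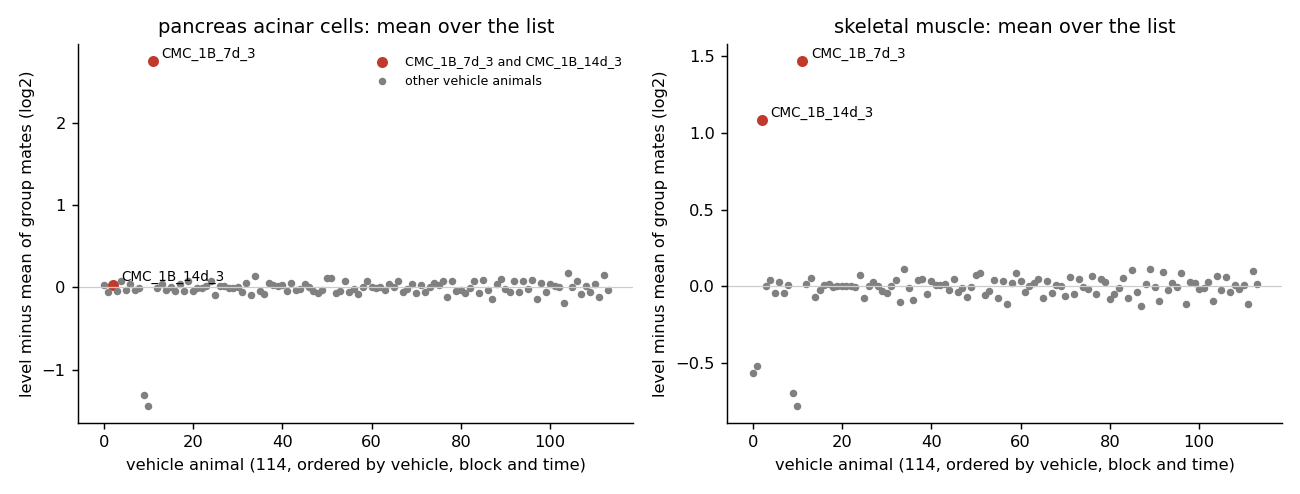
Mean level of 21 pancreas acinar genes (left) and 31 skeletal muscle genes (right) in each of 114 vehicle animals, minus the mean of its group mates (log2 units). CMC_1B_7d_3 stands at 2.74 and 1.46, CMC_1B_14d_3 at 0.03 and 1.08, and the mates of these animals fall below 0 because each is compared with them.

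Whether the spread itself differed between kinds of groups was asked with limma on the log variance of each group, less its expected bias. In vehicle groups against treated groups, 0 of 15866 probe sets had a higher spread (0%) and 12 a lower one (0.0756%), while 1845 had an unadjusted p below 0.05. The 12 covered 10 named genes. Gpx2, a glutathione peroxidase, had a pooled SD of 0.204 in vehicle groups and 0.574 in treated groups (fitted ratio 0.394, log2 ratio -1.35 ± 0.22 SE, adjusted p = 3.95e-05). Enc1 had 0.172 and 0.388 (adjusted p = 0.00309), Gstm3, a glutathione transferase, 0.138 and 0.389 (adjusted p = 0.00575), and Abcc3, an export pump, 0.103 and 0.296 (adjusted p = 0.0466). The others were Dlg1, Vtn, Apoc3, Susd6, mrpl9 and Cntn4. Vtn had pooled SDs of 0.0383 in vehicle and 0.0741 in treated groups, Apoc3 0.0441 and 0.0825, and Susd6 0.137 and 0.216. For Dlg1 (0.114 and 0.139), mrpl9 (0.0942 and 0.123) and Cntn4 (0.0992 and 0.125) the pooled SDs lay closer together. The calls rest on the fitted ratios, which were 0.549, 0.562 and 0.583 for these last genes. Mean levels in vehicle animals were 6.41 for Gpx2, 6.46 for Abcc3, 6.92 for Enc1 and 7.13 for Gstm3. Those of the others ran from 6.91 (Cntn4) to 14.48 (Apoc3). The comparison did not adjust for level, and whether a level near the floor made the vehicle SD small was not tested. These calls depended on the arrays used: the count of 12 became 3, 0 and 0 on leaving out the animals numbered 1, 2 or 3 in the groups, and 25 without CMC_1B_7d_3 and CMC_1B_14d_3. Of the 30 genes of highest spread none passed (lowest adjusted p = 0.166). Their median ratio of vehicle to treated SD was 0.999, and that over all probe sets was 0.91. All 14 averaged pairs of arrays were in CMC vehicle groups, and the treated groups held none. A mean of 2 arrays carries less array noise than 1 array. How far this lowered the vehicle SD was not tested.

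At day 14 against day 1 of dosing, with 1 term per block, no probe set had a higher spread (0%) or a lower one (0%) in limma, 1077 had an unadjusted p below 0.05, and the lowest adjusted p was 0.195, for Sumo3, Nceh1 and Tomm5. The median ratio of day-14 to day-1 SD was 1.14 over all probe sets and 1.02 over the 30 genes. In corn oil against CMC groups the counts were again 0 (0%) in each direction, with 684 at an unadjusted p below 0.05 and a lowest adjusted p of 0.772, for Slc13a1 and Crp. The median ratio of corn oil to CMC SD was 1.06 over all probe sets and 1.12 over the 30 genes. Averaged arrays occurred only on the CMC side, and how far they lowered the CMC SD was not tested. With 3 animals per group, a variance has only 2 degrees of freedom, and a p that misses the threshold does not show equal spread.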

How the data were processed

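Liver RNA was hybridised to Affymetrix RAE230A arrays. The deposited values are on the log2 scale and were made by the authors with RMA from MAS 5.0 CEL files, over 15866 probe sets and 421 arrays. Values of arrays carry no read depth, so the number of arrays limits the precision. No genome build applies to the array values; gene names came from GEO's platform annotation, with 12783 probe sets of 1 symbol, 312 of several and 2771 not listed there, and 12748 matched RefSeq (GRCr8) by gene ID. Promoter sequences are those of RefSeq, GRCr8, of which the 250 bases before the start were searched on both strands.

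Groups were taken from the labels. The analysis had been laid out for 128 arrays with 90 residual degrees of freedom; because 14 pairs of arrays proved almost alike, these were averaged, and the count with each array as an animal was added after seeing the data. Per gene the probe set with the highest mean was used. The group mean was subtracted, the pooled SD was divided by the SD fitted against the mean (lowess, span 0.3), and a ratio of at least 2 was called high spread. Named were, at a mean of at least 6, the 30 highest ratios among genes with a range of at least 1 in 10 or more groups, the 10 highest ratios among genes with at least 50% of the squared deviation from 1 animal, and, at a mean of at least 8, the 10 lowest ratios. Also named were the genes called in a spread comparison or the 5 smallest p-values, the genes of the listed pairs, members of sets, and members of gene lists. Members and lists were chosen with earlier results of these data known. Sets came from average linkage on 1 minus r in CMC animals, with the tree divided at 0.4 and at least 4 genes. Pairs were tested two-sided by 100000 permutations within groups, with Benjamini-Hochberg adjustment. Spread comparisons used limma on the natural log of the variance per group, less its expected bias and weighted by its expected precision. Calls needed an adjusted p below 0.05 and an SD ratio of at least 1.5. Block and time were factors for vehicle against treated groups and for day 14 against day 1. For corn oil against CMC, time was a factor and the block a random block. In a test of the SD ratio within vehicle groups on simulated data, 200 of 200 probe sets with a 3-fold SD among 15866 were recovered, with 0 false ones. These counts do not describe the limma comparisons. Python 3.11.15, numpy 2.4.6, scipy 1.17.1, statsmodels 0.14.6, matplotlib 3.10.9, R 4.3.3 and limma 3.58.1 were used.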

Additional observations from a re-analysis of the deposited data

How the results depend on the processing

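The count of high-spread genes (566) moved to 1270 with a ratio of 1.5 as the limit and to 194 with 3. In the other settings it lay between 496 and 625, which is also the range on leaving out the animals of 1 number in turn, and the 30 genes of highest ratio kept a ratio of at least 2 in each. The 10 genes that rest on 1 animal lost it without CMC_1B_7d_3 and CMC_1B_14d_3, with the median absolute deviation, without block 1B and without the third animals. The share of genes high in CMC animals that were high in corn oil (74.4%) became 81.5% without the 2 arrays, 78.1% at a mean of at least 6 and 78.2% with each array as an animal. In saline it became 65.2% without the 2 arrays and 63.2% with each array as an animal (58.8%), and in treated arrays 89.1% with each array as an animal (83.5%). The 12 probe sets of lower spread in vehicle than in treated groups became 25 without the 2 arrays, 22 at a mean of at least 6, 25 (and 1 higher) after quantile normalization, 5 with the log range of groups of 3, and 33 with each array as an animal. They became 0 to 3 on leaving out 1 animal per group, where a variance has 1 degree of freedom. Day 14 against day 1 and corn oil against CMC gave 0 in every setting run.

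Of the listed pairs 13 passed, and 8 to 12 on leaving out animals. The 15 sets became 23 with the tree divided at 0.5, 13 at 0.3, 14 without the 2 arrays or with each array as an animal, and 20 when corn oil and saline animals were clustered, where 11 of the 15 kept 50% or more of their members together. The animal numbers do not pair the animals: over 165 same-numbered pairs between groups the mean correlation of deviations was -0.03, and 30 were over 0.1. With the number as a replicate block, 551 genes had high spread and 11 pairs passed.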
